A study of Mus musculus with 24 samples.

Results

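The nuclear genes for the proteins of the mitochondrial ribosome were followed in cells sorted for CD11b from the brain of adult mice, before and after an inflammatory challenge. Members were the rows whose mouse symbol is Mrpl or Mrps, for the large or the small subunit, followed by a number and at most 1 letter. The rule found 78 members among the 55487 genes of the table, after 5 pseudogene symbols were dropped, and all 78 had enough counts to be tested. Males of 8 to 10 weeks were either control offspring or offspring exposed to maternal immune activation (MIA), whose agent the labels do not name. Each received saline or lipopolysaccharide (LPS, a component of bacterial outer membranes, 4500 endotoxin units per g) into the peritoneum, and tissue was taken 18 h later. Frontal cortex and striatum were sorted with anti-CD11b beads, which leaves a fraction rich in microglia, and the 8 groups of prenatal history, region and treatment held 3 RNA-seq libraries each. Replicate 3 of the MIA striatum LPS group is titled as excluded, so 23 libraries were used and that group held 2. No strain, genotype or litter was taken from the labels, which also do not say whether replicates are separate animals, so the p-values cover only the spread from library to library, which may be technical. MIA and litter therefore cannot be told apart.

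Mitochondria keep a ribosome of their own, which translates the few messenger RNAs encoded by mitochondrial DNA into core subunits of the respiratory chain and ATP synthase. All of its proteins are encoded in the nucleus, made in the cytosol and imported, while its ribosomal RNAs come from mitochondrial DNA. Some of the proteins descend from those of the bacterial ribosome and others were gained in the mitochondrial lineage. Microglia, the resident macrophages of the brain, are known to shift their energy metabolism when they meet LPS.

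By role, 51 members encode proteins of the large subunit and 26 of the small subunit. Of the large subunit members, 30 have a bacterial homolog and 21 are specific to mitochondria. Of the small subunit members, 16 have a bacterial homolog and 10 were classed as specific to mitochondria. That class includes Mrps18b, and in the large subunit Mrps18a, although both are paralogs of the bacterial protein S18. Symbols and positions differ for a few members: the proteins of Mrps30 and Mrps18a sit in the large subunit. Mrps36 is now regarded as part of the 2-oxoglutarate dehydrogenase complex. It is left out of the counts by subunit and by origin, but is included wherever all 78 members are counted or summed.

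The 23 libraries held 19453295 to 29480499 counts. Messenger RNAs of mitochondrial DNA made up 1.57 to 3.34% of the counts. The summed level of 10 microglial markers was 46562 to 63932 CPM (counts relative to the TMM-scaled library total) in saline libraries and 29424 to 40920 CPM after LPS. The summed neutrophil markers (9 of 9 tested) ran from 16.3 to 769 CPM in saline and from 229 to 758 CPM after LPS. The monocyte markers (8 of 8) ran from 36.0 to 175 and from 145 to 363 CPM. By setting, neutrophil sums with saline and with LPS were 64.2 to 305 and 505 to 758 CPM in control cortex. In control striatum they were 42.7 to 70 and 236 to 537 CPM, and in MIA striatum 16.3 to 62.4 and 229 to 510 CPM. None of these overlapped, while those of MIA cortex did (194 to 769 and 242 to 529 CPM). Monocyte sums overlapped in control striatum (85 to 175 and 145 to 311 CPM) and in no other setting. The highest oligodendrocyte sums, 5518 and 4154 CPM, were in control striatum saline, whose replicate 3 held 1295 CPM. These sums were 480 to 1075 CPM in control striatum LPS and 613 to 2628 CPM in MIA striatum saline. Endothelial sums were 855 to 2043 CPM in control striatum saline and 564 to 899 CPM in control striatum LPS. Markers of border macrophages (7 of 7 tested), the macrophages of meninges and vessels, summed to 850 and 1176 CPM in MIA striatum LPS, against 319 to 474 CPM in MIA striatum saline and 347 to 547 CPM in control striatum LPS. These groups did not overlap. MIA cortex LPS replicate 3 stood apart with a neuronal sum of 226 CPM against 23.3 and 29.3 CPM, and MIA cortex saline replicate 1 with a neutrophil sum of 769 CPM against 194 and 266 CPM. Lymphocyte markers were near 0: 2 of 8 were tested, their sum was 0.261 to 4.37 CPM, and Ms4a1, a B-cell marker, was under 1 CPM in every group. The part of these cells in the results below was not tested, and fewer cells of a type cannot be told apart from less RNA per cell in bulk samples.

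Members were expressed at moderate levels, with means over the 23 libraries from 9.41 to 61.1 CPM. Divided by the length of the principal transcript, the level was highest for Mrpl42 at 61.5 CPM per kb, Mrpl52 at 59.2 and Mrps33 at 55.2. The lowest levels per kb were those of Mrps35 at 3.63, Mrpl19 at 3.67 and Mrps26 at 3.83 CPM per kb. Subunits of a single complex thus differed widely in RNA per length, though the principal transcript may not be the one these cells use.

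The summed level of the 78 members was higher after LPS in each of the 4 settings. In control cortex it was 1761, 1766 and 1605 CPM in saline libraries and 2568, 2701 and 2280 CPM in LPS libraries. In control striatum it was 1520, 1651 and 1623 CPM in saline and 2898, 2498 and 2404 CPM after LPS. The LPS libraries of controls thus lay above their saline libraries with no overlap. In MIA cortex the sums were 1971, 1538 and 1668 CPM in saline and 2240, 2257 and 2112 CPM after LPS. In MIA striatum they were 1771, 1740 and 1657 CPM in saline and 2013 and 2237 CPM after LPS. Groups again did not overlap, and these 5 MIA libraries given LPS lay below the 6 control libraries given LPS. The excluded sixth library summed to 3131 CPM when scaled with all 24, above every control LPS library (at most 2896 CPM on that scale), so this order does not hold with it.

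**Figure D1:**
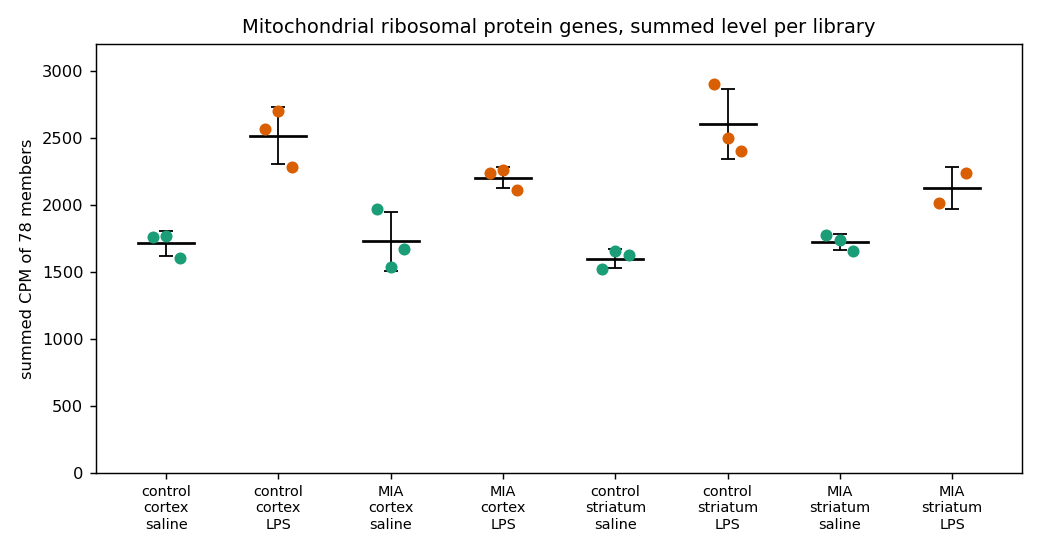
Summed level of the 78 mitochondrial ribosomal protein genes (CPM, vertical axis from 0) in each library by group; points are libraries (green saline, orange LPS), bars the group mean and whiskers the SD (n = 3, and 2 in MIA striatum LPS). LPS libraries of control offspring lie between 2280 and 2898 CPM and those of MIA offspring between 2013 and 2257 CPM.

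A gene was called when the adjusted p of edgeR's quasi-likelihood test, over all 17139 genes tested, was under 0.05. In control cortex, LPS raised 42 members and lowered none, against 10.9% of all genes called higher and 7.25% called lower. The median log2 fold change of the 78 was 0.56 (range -0.06 to 1.46), and that of all genes was 0.04. In control striatum, 60 members rose and none fell, against 12.7% of all genes called higher and 8.15% lower, with a median of 0.74 (-0.17 to 1.68) against -0.02. In MIA cortex 17 members rose and none fell, against 7.05% of all genes called higher and 4.85% lower, with a median of 0.34 (-0.16 to 1.18) against 0.01. In MIA striatum 10 rose and none fell, against 6.93% of all genes called higher and 3.31% lower, with a median of 0.29 (-0.28 to 1.19) against -0.06. At an unadjusted p under 0.05, 0 members were lower in any of the 4 settings, and DESeq2 called none lower. Among genes whose mean level lay in the members' range, the shares called higher were 15.7%, 19.3%, 9.64% and 9.87% in the same order.

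**Figure D2:**
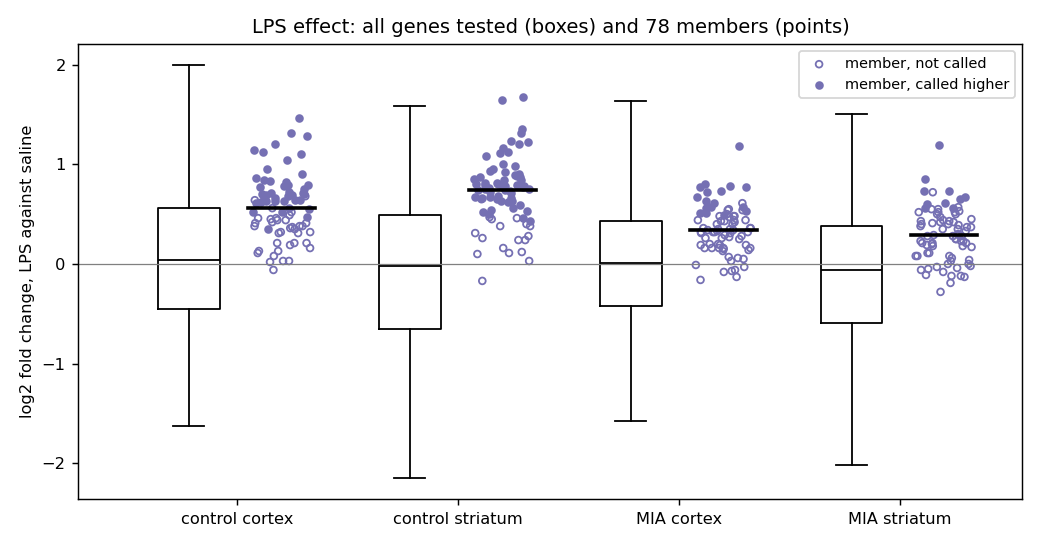
Log2 fold change with LPS (vertical axis) in 4 settings; boxes give the 25th to 75th percentile of all 17139 genes tested with whiskers from the 5th to the 95th, and points are the 78 members, filled where called higher, with a bar at their median. The members' medians of 0.56, 0.74, 0.34 and 0.29 lie above those of all genes.

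The MIA counts rested on single libraries. Without MIA cortex LPS replicate 1, LPS replicate 2 or saline replicate 2, the MIA cortex count was 7, 8 or 10. Without either LPS library of MIA striatum its count was 1, and without saline replicate 1, 2 or 3 it was 3, 3 or 2. A lone remaining library was assumed to vary like the other groups. With the excluded library added, MIA striatum had 29 called members and MIA cortex 7. Without both MIA cortex libraries that stood apart, the MIA cortex count was 21 and its median 0.49.

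Groups did not overlap, with LPS higher, for 57 members in control cortex against 18.0% of all genes, and for 68 in control striatum against 17.6%. The numbers were 42 in MIA cortex against 14.2% and 48 in MIA striatum against 24.3%. In MIA striatum 2 members, Mrps33 and Mrps21, were lower with no overlap, against 20.1% of all genes. Neither was called. Mrps21 stood at 22.3, 21.6 and 21.2 CPM in MIA striatum saline and at 19.1 and 21.1 CPM after LPS.

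Across settings, 5 members were called in all 4: Mrps18b, Mrpl12, Mrps2, Mrps27 and Mrps28. Of these, Mrps27 and Mrps28 passed narrowly in MIA cortex, where their calls were not followed under the alternatives. A further 17 were called in 3 settings, 19 in 2, 20 in 1 and 17 in none. The 2 control settings shared 41 called members, and Mrpl10, which encodes a protein at the base of the stalk, was called in control cortex alone (adjusted p = 0.049, and 0.10 in control striatum). All 17 members called in MIA cortex were also called in control cortex, and all 10 called in MIA striatum were also called in control striatum. The order of the members was alike in regions: Spearman's rho of the log2 fold changes across the 78 genes was 0.87 between control cortex and control striatum and 0.73 between MIA cortex and MIA striatum. These settings share no library, but genes are not independent replicates, and libraries of the 2 regions may come from the same animals. Deviations of same-numbered cortex and striatum libraries correlated at 0.36 to 0.4 in control saline and at -0.09 to 0.7 in MIA saline.

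The largest response was that of Mrps18b (ENSMUSG00000024436.16), 1 of 3 mammalian paralogs of the bacterial small subunit protein S18. In control cortex its level was 23.7, 29.7 and 23.8 CPM with saline and 69.5, 75.6 and 66.8 CPM with LPS. Control striatum libraries held 18.7, 21.8 and 25.2 CPM with saline and 82.2, 64.0 and 65.0 CPM with LPS. Every LPS library was thus more than double any saline library of its region. In MIA cortex it was 23.9, 24.5 and 20.8 CPM with saline and 53.0, 53.9 and 50.1 CPM with LPS. In MIA striatum it was 24.2, 25.4 and 19.8 CPM with saline and 49.9 and 55.3 CPM with LPS. With LPS it rose by 1.46 on the log2 scale (SE 0.15, adjusted p = 8.8e-07) in control cortex and 1.68 (SE 0.15, adjusted p = 1.5e-07) in control striatum. In MIA offspring it was 1.18 (SE 0.15, adjusted p = 1.7e-05) in cortex and 1.19 (SE 0.16, adjusted p = 5.3e-05) in striatum. Mrps18b was called under every alternative tried in all 4 settings, and in MIA striatum it was the member that stayed called when either LPS library was left out.

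The other 2 paralogs moved less. Mrps18c, whose protein occupies the position of S18 in the small subunit, stood at 15, 18.2 and 15.8 CPM in control cortex saline and at 22.6, 28.1 and 25.2 CPM after LPS. Its log2 fold change was 0.63 in control cortex (SE 0.19, adjusted p = 0.025) and 0.78 in control striatum (SE 0.19, adjusted p = 0.0061). It was not called in MIA cortex (0.35, SE 0.19) or MIA striatum (0.03, SE 0.21). The control cortex call was lost without LPS replicate 2 or saline replicate 1 or 3 (adjusted p = 0.093, 0.095 and 0.079). Mrps18a, whose protein lies in the large subunit, was at 28, 24 and 22.1 CPM in control cortex saline and at 32.7, 32.9 and 26.2 CPM after LPS, which overlap. Its log2 fold changes were 0.31 (SE 0.16), 0.46 (SE 0.16), 0.07 (SE 0.16) and 0.00 (SE 0.18) in control cortex, control striatum, MIA cortex and MIA striatum. Only that in control striatum was called (adjusted p = 0.047), and leaving out other libraries lost it, with adjusted p up to 0.23 without LPS replicate 1. Differences between paralogs were not tested.

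These 3 paralogs were called in different numbers of settings, and the 160 bases before the annotated start of each are shown. That of Mrpl12 is shown as a member called in all 4 settings and that of Mrpl9 as a member called in none. Sequences are from RefSeq (GRCm38.p6), written 5′ to 3′ on the gene's strand. Capitals mark a match to CCGGAAG (bound by ETS factors such as GABPA), GCGCA followed by any base and GCGC (the NRF1 site) or AAGATGGC (YY1) on either strand.
Mrps18b, chr17:35916441-35916600, minus strand: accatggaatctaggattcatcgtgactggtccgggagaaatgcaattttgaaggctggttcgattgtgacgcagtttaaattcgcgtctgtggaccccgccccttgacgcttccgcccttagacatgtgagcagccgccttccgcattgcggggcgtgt
Mrps18c, chr5:100798599-100798758, plus strand: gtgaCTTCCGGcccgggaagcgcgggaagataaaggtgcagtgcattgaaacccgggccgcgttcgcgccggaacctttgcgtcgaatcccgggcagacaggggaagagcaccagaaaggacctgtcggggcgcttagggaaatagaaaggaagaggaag
Mrps18a, chr17:46110844-46111003, plus strand: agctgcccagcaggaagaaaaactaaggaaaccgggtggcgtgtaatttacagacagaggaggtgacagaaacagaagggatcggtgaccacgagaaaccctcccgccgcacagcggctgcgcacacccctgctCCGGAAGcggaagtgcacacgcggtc
Mrpl12, chr11:120484477-120484636, plus strand: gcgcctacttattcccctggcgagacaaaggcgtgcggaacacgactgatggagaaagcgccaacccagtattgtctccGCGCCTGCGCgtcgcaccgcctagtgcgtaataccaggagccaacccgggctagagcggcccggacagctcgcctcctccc
Mrpl9, chr3:94443176-94443335, plus strand: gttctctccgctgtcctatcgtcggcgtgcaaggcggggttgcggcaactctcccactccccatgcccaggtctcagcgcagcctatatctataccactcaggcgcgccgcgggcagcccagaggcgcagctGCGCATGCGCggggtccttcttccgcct
Mrps18b holds none of the 3 motifs in this stretch, Mrps18c and Mrps18a each hold the ETS letters once, and Mrpl12 and Mrpl9 each hold the NRF1 letters once. Letters that are missing in this stretch say nothing about the factors themselves.

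RefSeq promoter windows of 300 bases (250 before to 50 after the start) were found for 69 members, with 75 windows, and for 9 members there was no entry. On both strands, CCGGAAG occurred in 34.7% of the member windows and in 8.86% of all 32851 windows. The NRF1 letters occurred in 17.3% against 4.6%, and AAGATGGC in 16% against 2.75%. The letters CACGTG (E-box) occurred in 9.33% against 7.15%, and CCAAT in 40% against 37.4%. These factors are known regulators of nuclear genes for mitochondrial proteins, and the counts describe letters, not binding. Of 53 members with a window that rose in control striatum, 21 held CCGGAAG, as did 5 of 16 that were not called. The NRF1 letters were held by 8 of the 53 and 5 of the 16, and AAGATGGC by 11 and 1. CACGTG was held by 5 and 0, and CCAAT by 25 and 2.

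Among small subunit members, 14 of 26 rose in control cortex, 20 in control striatum, and 9 and 5 in MIA cortex and striatum, with medians of 0.54, 0.73, 0.38 and 0.36. The shares of all genes called higher were 10.9%, 12.7%, 7.05% and 6.93%. Mrps28, a member with a bacterial homolog, stood at 11.8, 10.7 and 7.07 CPM in control cortex saline and at 26.5, 27.4 and 18.2 CPM after LPS. Control striatum libraries stood at 10.3, 12.3 and 9.01 CPM and at 27.4, 18.8 and 27.7 CPM. No library of the treatments overlapped, and the log2 fold change was 1.28 (SE 0.24, adjusted p = 0.00057) in cortex and 1.23 (SE 0.24, adjusted p = 0.00078) in striatum. In MIA offspring Mrps28 rose by 0.73 (SE 0.23, adjusted p = 0.046, near the threshold) in cortex and 0.85 (SE 0.26, adjusted p = 0.038) in striatum. The latter call was lost when any library of MIA striatum was left out (adjusted p up to 0.38, without LPS replicate 2).

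Mrps27, a pentatricopeptide repeat protein of the small subunit, was at 19.3, 18.7 and 18.9 CPM in control cortex saline and at 32.9, 34.4 and 34.6 CPM after LPS. The replicates lay close together and far from the other group. Its log2 fold change was 0.84 (SE 0.17, adjusted p = 0.001) in control cortex and 1.08 (SE 0.17, adjusted p = 8.7e-05) in control striatum. In MIA cortex it was 0.51 (adjusted p = 0.049) and in MIA striatum 0.67 (adjusted p = 0.02). The MIA cortex call of Mrps27 lay near the threshold of 0.05 and was not followed under the alternatives. Mrps2, which has a bacterial homolog, gave 0.61, 0.63, 0.63 and 0.60 in control cortex, control striatum, MIA cortex and MIA striatum (SE 0.15 to 0.17, adjusted p = 0.0062, 0.0047, 0.0082 and 0.022). It was the member called in all 4 settings whose estimates differed least between control and MIA offspring. In MIA cortex its call was lost without LPS replicate 1 (0.05, all values here being adjusted p) or saline replicate 1 (0.053), and in MIA striatum the calls of Mrps2 and Mrps27 were lost without LPS replicate 1 (0.073 and 0.066), LPS replicate 2 (0.37 and 0.31) or saline replicate 3 (0.065 for both). Without saline replicate 2 Mrps2 (0.11), and without saline replicate 1 Mrps27 (0.081), was not called there.

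Of the other small subunit members, Mrps10 went from 12.6, 10.7 and 13.9 CPM to 28.8, 26.5 and 24.6 CPM in control cortex, which is 1.10 on the log2 scale (SE 0.19, adjusted p = 0.00025), and by 1.31 (SE 0.19, adjusted p = 4e-05) in control striatum. Its change was 0.67 in MIA cortex (adjusted p = 0.022) and 0.52 in MIA striatum (adjusted p = 0.13). The MIA cortex call of Mrps10 was not followed under the alternatives. Mrps15 rose by 0.86 (SE 0.14, adjusted p = 0.00016) in control cortex and 0.57 (SE 0.14, adjusted p = 0.0095) in MIA cortex, where the call was lost with no filter on low counts (adjusted p = 0.063). Mrps12, the protein of the decoding centre, rose by 1.20 (SE 0.19, adjusted p = 0.00014) in control striatum and 0.73 (SE 0.21, adjusted p = 0.031) in MIA striatum. That MIA striatum call of Mrps12 was lost when any of the 5 libraries was left out (adjusted p up to 0.36, without LPS replicate 2). Mrps5 and Mrps22 were among the stronger calls in MIA cortex, at 0.78 (SE 0.16, adjusted p = 0.0021) and 0.80 (SE 0.19, adjusted p = 0.0079), against 0.52 and 0.65 in control cortex.

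Among large subunit members, 27 of 51 rose in control cortex, 39 in control striatum, and 8 and 5 in MIA cortex and striatum, with medians of 0.56, 0.74, 0.32 and 0.28. The shares of all genes called higher were 10.9%, 12.7%, 7.05% and 6.93%, and 9.87% of genes at the members' levels in MIA striatum. Mrpl12, which forms the stalk that recruits translation factors, was at 28.5, 30.9 and 25.6 CPM in control cortex saline and at 71.3, 70.7 and 45.2 CPM after LPS. Control striatum held 27.2, 27.6 and 25.9 CPM with saline and 61.8, 66.0 and 59.9 CPM with LPS. In MIA striatum it was at 29.8, 29.8 and 29.2 CPM and at 47.8 and 50.6 CPM. Saline libraries lay near each other in all groups but MIA cortex, where replicate 1 reached 38.0 CPM against 26.8 and 26.7. The log2 fold changes were 1.14 (SE 0.16, adjusted p = 4.3e-05) in control cortex and 1.22 (SE 0.16, adjusted p = 1.8e-05) in control striatum. They were 0.77 (SE 0.16, adjusted p = 0.0028) in MIA cortex and 0.73 (SE 0.18, adjusted p = 0.0098) in MIA striatum, where the call was lost without LPS replicate 1 or 2 (adjusted p = 0.061 and 0.14).

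Mrpl33, a short protein with a bacterial homolog, went from 8.44, 8.52 and 7.16 CPM to 20.7, 22.9 and 16.2 CPM in control cortex. In control striatum it went from 6.86, 8.13 and 9.38 CPM to 32.9, 20.7 and 23.2 CPM. All LPS libraries lay above all saline libraries, and the log2 fold changes were 1.31 (SE 0.24, adjusted p = 0.00047) and 1.65 (SE 0.24, adjusted p = 4.2e-05). Mrpl54, specific to mitochondria, rose by 1.20 (SE 0.19, adjusted p = 0.0001) in control cortex and 1.35 (SE 0.19, adjusted p = 2.6e-05) in control striatum. It was not called in MIA cortex (0.48, adjusted p = 0.11) or MIA striatum (0.42, adjusted p = 0.25). Mrpl17 rose by 0.78 (SE 0.14) in control cortex, 0.92 (SE 0.14) in control striatum and 0.57 (SE 0.14) in MIA cortex, with adjusted p = 0.00046, 7.8e-05 and 0.0096. The last of these calls was lost with all 24 libraries (adjusted p = 0.054). Mrpl40 rose by 1.16 (SE 0.15, adjusted p = 1.5e-05) in control striatum. Mrpl38 and Mrpl51, both specific to mitochondria, rose in MIA striatum by 0.65 (SE 0.18, adjusted p = 0.021) and 0.56 (SE 0.16, adjusted p = 0.026). Both calls were lost when any of the 5 libraries was left out (adjusted p up to 0.31 and 0.43, without LPS replicate 2).

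Mrpl58 is a release factor relative built into the large subunit, where it can free stalled chains. It was at 16.5, 16 and 15.9 CPM in control cortex saline and at 27.3, 28.5 and 24 CPM after LPS, a change of 0.72 (SE 0.18, adjusted p = 0.0064). It rose by 0.88 (SE 0.18, adjusted p = 0.0012) in control striatum and 0.72 (SE 0.18, adjusted p = 0.01) in MIA cortex, and was not called in MIA striatum (0.40, adjusted p = 0.24). The MIA cortex call was lost without LPS replicate 1 (adjusted p = 0.075). Mrps30 stood at 28.2, 29.7 and 29.2 CPM in control cortex saline and at 29.2, 30.2 and 32.6 CPM after LPS, with a change of 0.08 (SE 0.17). In control striatum it stood at 23.7, 19.9 and 25.8 CPM and at 43.6, 30.9 and 30.2 CPM, with a change of 0.59 (SE 0.17, adjusted p = 0.016). That call was lost without LPS replicate 1, at an adjusted p = 0.11, and without saline replicate 2, at 0.087. Mrps36 rose by 0.79 (SE 0.19, adjusted p = 0.0055) in control cortex and 0.80 (SE 0.19, adjusted p = 0.0046) in control striatum. It was not called in MIA cortex (0.54, adjusted p = 0.074) or MIA striatum (0.23, adjusted p = 0.60).

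**Figure D3:**
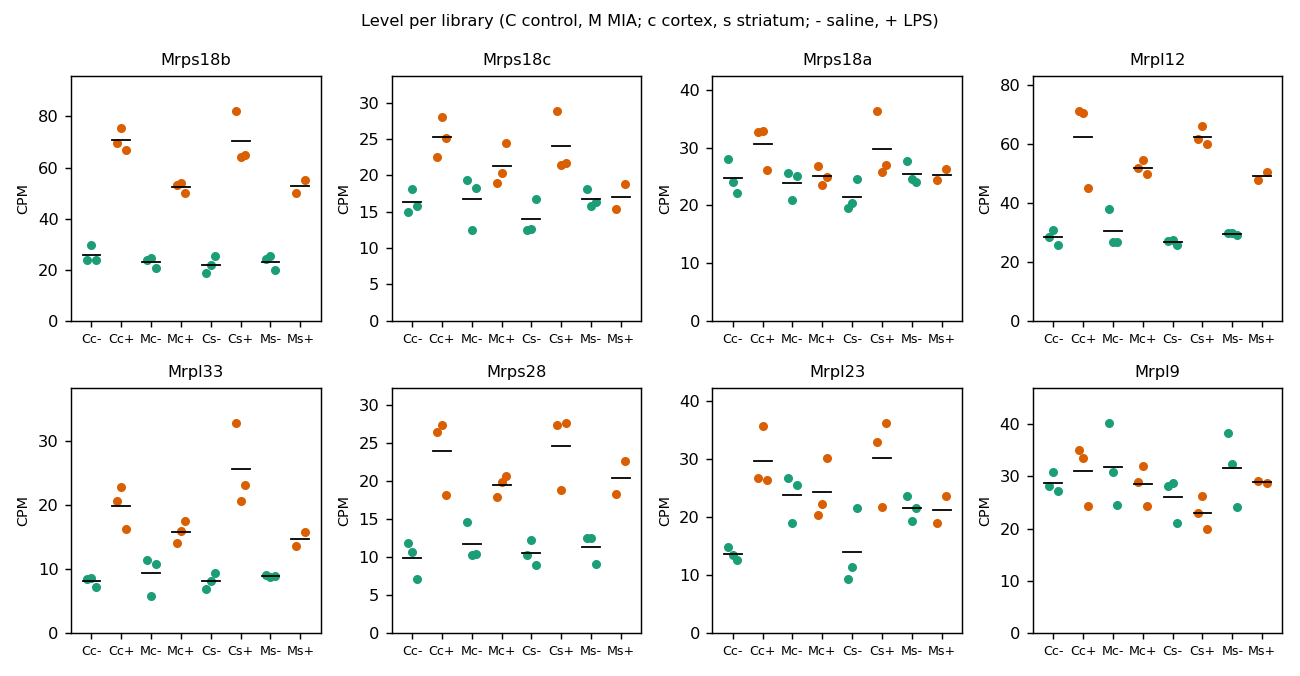
Level (CPM, vertical axes from 0) of 8 members in each library by group (C control, M MIA, c cortex, s striatum, - saline in green, + LPS in orange); bars are group means. Mrps18b separates LPS from saline in all 4 settings, while the groups of Mrpl9 overlap.

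By origin, members with a bacterial homolog rose in 29, 37, 12 and 6 cases of 46 in control cortex, control striatum, MIA cortex and MIA striatum. All genes called higher were 10.9%, 12.7%, 7.05% and 6.93% in the same order, and 9.87% of genes at the members' levels in MIA striatum. Members classed as specific to mitochondria rose in 12, 22, 5 and 4 cases of 31. Mrps18a and Mrps18b, paralogs of bacterial S18, are counted in this class. The difference between these classes was not tested.

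The 17 members called in no setting were Mrpl1, Mrpl9, Mrpl13, Mrpl24, Mrpl30, Mrpl34, Mrpl43, Mrpl44, Mrpl45, Mrpl48, Mrpl49, Mrps6, Mrps21, Mrps25, Mrps31, Mrps33 and Mrps35. Mrpl9 was at 28.2, 30.8 and 27.3 CPM in control cortex saline and at 35.1, 33.5 and 24.3 CPM after LPS, and at 28.1, 28.8 and 21.1 CPM and 23, 26.2 and 19.9 CPM in control striatum. The groups overlap, and its log2 fold changes were 0.11 (SE 0.20), -0.17 (SE 0.21), -0.16 (SE 0.20) and -0.13 (SE 0.23). Mrps33, among the most abundant members per kb, gave 0.03 (SE 0.16), 0.26 (SE 0.16), 0.15 (SE 0.16) and -0.19 (SE 0.17). Mrps35 gave 0.13 (SE 0.22), 0.24 (SE 0.22), 0.06 (SE 0.22) and -0.12 (SE 0.24). The proteins of these members sit in the same particle as those that rose.

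Reads of near copies and overlapping genes can be shared. Exons of 33 members overlap those of another annotated gene, among them Mrps18b, Mrps27, Mrpl12 and Mrpl58 with a gene on the opposite strand and Mrpl33 and Mrps18c with a gene on the same strand. The 45 members without such an overlap included 27, 37, 12 and 6 called members, with medians of 0.62, 0.75, 0.40 and 0.35. Over all genes, 10.9%, 12.7%, 7.05% and 6.93% were called higher.

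The next question was whether members responded differently in MIA offspring. In saline libraries, MIA and control cortex differed by a median of 0.01 on the log2 scale and MIA and control striatum by 0.12. No member was called in either (0% of all genes were called). At an unadjusted p under 0.05, 2 members differed in each, and DESeq2 called none. After LPS, the median difference of MIA from control was -0.21 in cortex and -0.31 in striatum, with 70 and 72 of 78 members below 0, against 51.3% and 51.8% of all genes. With the excluded library added, the striatum median was -0.07, with 22 members above 0, and without control striatum LPS replicate 1 it was -0.21. Again no member was called in cortex (0% of all genes) or in striatum (0.146% of all genes), and DESeq2 called 0 and 4 lower. At an unadjusted p under 0.05, 9 members were lower in cortex against 2.78% of all genes, and 22 in striatum against 4.65%. These numbers rested on few libraries. In cortex 1 member passed without control cortex LPS replicate 2, 3 to 5 passed without MIA cortex LPS replicate 1, 2 or 3 or saline replicate 2 or 3, and 3 or 4 without control striatum saline replicate 3, MIA striatum LPS replicate 1 or MIA striatum saline replicate 2. In striatum 8 passed without control striatum LPS replicate 1 and 5 without MIA striatum LPS replicate 1. With no filter on low counts 2 passed in cortex and 8 in striatum, and with all 24 libraries 3 and 2. The summed border macrophage markers were highest among striatal groups in MIA striatum LPS, as given above, and their part in the striatal differences was not tested.

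The MIA by LPS interaction compares the LPS response of MIA offspring with that of controls. It had a median of -0.20 over the members in cortex (all genes -0.02) and -0.41 in striatum (all genes -0.03). It was below 0 for 65 of 78 members in cortex, against 52.0% of all genes, and for 76 in striatum, against 51.9%. No member and no other gene was called in either region (0% of all genes), and DESeq2 called no member. At an unadjusted p under 0.05, 4 members were below 0 in cortex against 2.65% of all genes, and 17 in striatum against 4.27%. The striatal number was 10 without control striatum LPS replicate 1 or saline replicate 1, 6 without MIA striatum LPS replicate 1, 9 with no filter on low counts and 1 with all 24 libraries. The number in cortex ran from 2 to 8 when single libraries were left out (8 without control cortex LPS replicate 3, 2 without MIA cortex saline replicate 3). Without both MIA cortex libraries that stood apart, the cortex median was -0.06, with 30 members above 0. With the excluded library added, the striatum median was -0.20, with 11 above 0. The interaction, the LPS effects and the MIA effects share libraries, so their values are not separate evidence.

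**Figure D4:**
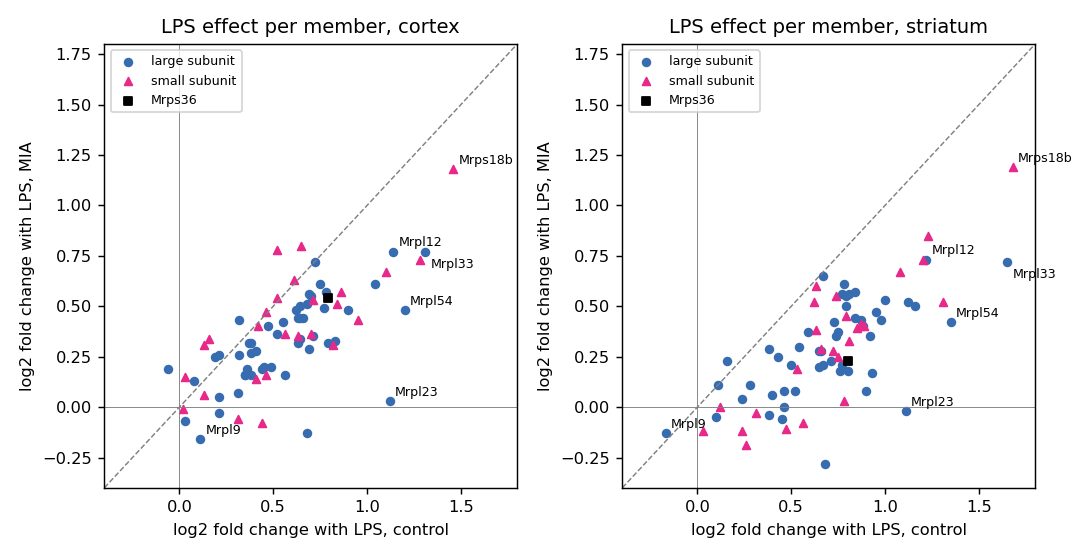
Log2 fold change with LPS in MIA offspring (vertical) against control offspring (horizontal) for each of the 78 members in cortex and striatum, by subunit; the dashed line marks equal responses. Most members lie under the line, 65 in cortex and 76 in striatum, and no interaction was called.

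The smallest interaction p values belonged to Mrpl23 and Mrpl54 in cortex and to Mrpl54 and Mrpl32 in striatum. Mrpl23, a protein at the exit of the peptide tunnel, was at 14.8, 13.4 and 12.6 CPM in control cortex saline and at 26.8, 35.7 and 26.5 CPM after LPS. In MIA cortex it was at 26.7, 19.0 and 25.6 CPM with saline and at 20.3, 22.2 and 30.3 CPM with LPS. MIA cortex libraries thus overlapped between treatments, and those given saline lay above the control saline libraries. Its log2 fold change was 1.12 (SE 0.27, adjusted p = 0.005) in control cortex and 1.11 (SE 0.27, adjusted p = 0.0051) in control striatum, against 0.03 (SE 0.26) and -0.02 (SE 0.29) in MIA offspring. The interaction was -1.09 (SE 0.37, unadjusted p = 0.0084, adjusted p = 1) in cortex and -1.12 (SE 0.40, unadjusted p = 0.011, adjusted p = 0.63) in striatum by edgeR. The saline difference was 0.80 (SE 0.27, adjusted p = 0.91) in cortex and 0.61 (SE 0.27, adjusted p = 0.92) in striatum. A near-identical pseudogene, Mrpl23-ps1, exists, so the counts of Mrpl23 depend on how reads were shared.

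Mrpl54 had interactions of -0.72 (SE 0.26, unadjusted p = 0.012, adjusted p = 1) in cortex and -0.94 (SE 0.28, unadjusted p = 0.0032, adjusted p = 0.56) in striatum by edgeR. In control striatum it went from 8.46, 11.2 and 11.2 CPM to 26.4, 25.2 and 27.3 CPM, and in MIA striatum from 12.1, 14.1 and 13.1 CPM to 15.5 and 19.5 CPM. Treatments did not overlap in either. Mrpl32, a protein matured by the m-AAA protease, went from 18.9, 15.5 and 17.6 CPM to 32.8, 36.8 and 29.5 CPM in control striatum. In MIA striatum it stood at 22.6, 19.7 and 17.5 CPM with saline and at 21.7 and 23.2 CPM with LPS, which overlap, and the interaction was -0.75 (SE 0.23, unadjusted p = 0.0041, adjusted p = 0.56). For Mrps18b the interaction was -0.27 (SE 0.21) in cortex and -0.50 (SE 0.22) in striatum, and for Mrpl12 it was -0.37 (SE 0.23) and -0.49 (SE 0.24). For Mrps2 it was 0.01 (SE 0.21) and -0.03 (SE 0.23), and for Mrpl58 0.00 (SE 0.25) and -0.48 (SE 0.27). Mrps18c gave -0.29 (SE 0.27) and -0.75 (SE 0.29), Mrps18a -0.24 (SE 0.23) and -0.46 (SE 0.24), Mrps30 0.05 (SE 0.24) and -0.22 (SE 0.25), and Mrps36 -0.25 (SE 0.27) and -0.58 (SE 0.29).

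Single members led the direct MIA comparisons without being called. In saline, Mrps30 was lower in MIA cortex by edgeR (-0.39, SE 0.17, unadjusted p = 0.03, adjusted p = 0.91). In striatum, Mrpl52 was at 14.2, 13.3 and 16 CPM in control saline and at 22.2, 23.8 and 19.3 CPM in MIA saline, with no overlap (0.59, SE 0.21, adjusted p = 0.92). After LPS, Mrps18b and Mrpl17 were lowest in p in MIA cortex, at -0.43 (SE 0.15, adjusted p = 0.75) and -0.35 (SE 0.14, adjusted p = 0.89). In striatum after LPS, Mrpl50 was at 40.8, 32.8 and 28.5 CPM in controls and at 19.5 and 21.3 CPM in MIA offspring, with no overlap (-0.74, SE 0.20, adjusted p = 0.18). Mrpl17 differed there by -0.52 (SE 0.16, adjusted p = 0.26).

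Between regions, no member was called in saline. The median of striatum minus cortex was -0.10 in control offspring and 0.00 in MIA offspring, and 0.502% and 0.0817% of all genes were called. DESeq2 called no member either. At an unadjusted p under 0.05 there was 1 member, Mrpl40, in controls (-0.36, SE 0.15, edgeR adjusted p = 0.33) and 0 in MIA offspring. The next smallest p in controls was that of Mrpl3 (-0.33, SE 0.17), and in MIA offspring the smallest were those of Mrps31 (0.30, SE 0.17) and Mrps5 (0.27, SE 0.16).

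The changes were also set against transcript length. The median principal transcript of the members was 1302 nucleotides (nt; 418 to 7300). Protein-coding genes under 1000 nt had median LPS changes of 0.46, 0.46, 0.17 and -0.02 in control cortex, control striatum, MIA cortex and MIA striatum (841 genes), and the 25 members under 1000 nt had 0.66, 0.80, 0.35 and 0.40. For transcripts of 2000 nt or more, all 10707 genes had medians of -0.02, -0.13, 0.00 and -0.06, and the 25 members had 0.52, 0.72, 0.35 and 0.28. The 28 members between these lengths had medians of 0.42, 0.66, 0.34 and 0.23, against 0.23, 0.23, 0.12 and 0.04 for 3051 genes. Over the 78 members, Spearman's rho of length with the LPS change was -0.26, -0.29, -0.01 and -0.03, and with the interaction 0.41 in cortex and 0.42 in striatum. These correlations are across genes of the same libraries and only describe them. The interaction had medians of -0.30 in cortex and -0.47 in striatum, the same for the members and for all genes under 1000 nt. From 2000 nt upward they were -0.15 and -0.37 for the members and 0.03 and 0.08 for all genes. The part of transcript length in these values was not tested.

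**Figure D5:**
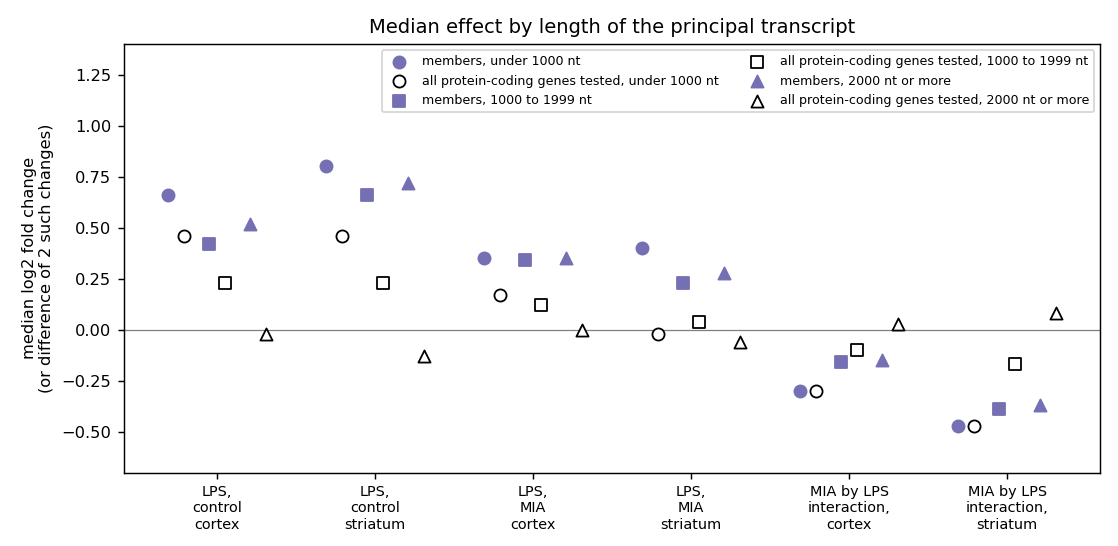
Median log2 fold change with LPS in 4 settings, and median MIA by LPS interaction in 2 regions (vertical axis), by length of the principal transcript; filled symbols are members (25, 28 and 25 genes) and open symbols all protein-coding genes tested. Members and all genes have the same interaction medians under 1000 nt, and differ at 2000 nt or more.

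Genes that act with the mitochondrial ribosome were counted from lists. Over all genes, 10.9%, 12.7%, 7.05% and 6.93% were called higher in control cortex, control striatum, MIA cortex and MIA striatum. The other subunits under older names (5 genes) rose in 3, 5, 3 and 1 cases in control cortex, control striatum, MIA cortex and MIA striatum. Dap3, a GTP-binding protein of the small subunit, rose in all 4 (0.69, 0.78, 0.75 and 0.58, SE 0.16 to 0.18, adjusted p = 0.0041, 0.0013, 0.003 and 0.037), and the MIA striatum call was lost when any of its 5 libraries was left out (adjusted p up to 0.38, without LPS replicate 2). Chchd1 rose by 0.94, 1.12 and 0.51 in the first 3 settings, and Aurkaip1 by 0.68, 0.86 and 0.49, and neither was called in MIA striatum. The MIA cortex result of Chchd1 was not followed under the alternatives. Gadd45gip1 rose in control striatum alone (0.93, adjusted p = 0.00093). Of 29 tested genes for assembly and ribosomal RNA modification, 6, 8, 3 and 5 rose and 1 fell, in control cortex. The 3 in MIA cortex are too few to set apart from the share over all genes. Rcc1l, an assembly factor, rose by 0.84, 1.38, 0.78 and 0.79, and the GTPase Noa1 by 0.96, 1.08, 0.72 and 1.15. Ndufab1, the mitochondrial acyl carrier protein, rose by 0.77, 0.85 and 0.50 in the first 3 settings, the methyltransferase Mrm3 by 0.86 and 1.77 in controls, and Nsun4 by 0.52 and 0.83 in the striatum of control and MIA offspring. In MIA cortex the call of Noa1 was lost without LPS replicate 2 (adjusted p = 0.13), LPS replicate 3 (0.058) or saline replicate 1 (0.11), and that of Aurkaip1 without LPS replicate 2 (0.18) or saline replicate 2 (0.085). In MIA striatum the call of Nsun4 was lost without LPS replicate 2 (0.21) or saline replicate 3 (0.063).

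Of 17 translation factors tested, 4, 6, 2 and 3 rose and 1, 0, 1 and 0 fell. All genes called higher were 10.9%, 12.7%, 7.05% and 6.93%, and the 2 in MIA cortex are too few to set apart from that share. Tufm, the elongation factor that delivers transfer RNA, was at 38.1, 42.3 and 35.7 CPM in control cortex saline and at 66.8, 70.3 and 53.4 CPM after LPS. It rose by 0.71, 0.70, 0.58 and 0.74 (SE 0.12 to 0.14, adjusted p = 0.00032, 0.00038, 0.0031 and 0.0011). Pdf, the peptide deformylase, rose by 0.59, 0.86, 0.66 and 0.63, and Tsfm, the exchange factor of Tufm, by 0.62 and 0.90 in controls and 0.73 in MIA striatum. The call of Tsfm in MIA striatum was lost without LPS replicate 2 (adjusted p = 0.32) or saline replicate 1 (0.064) or 3 (0.058), and that of Pdf in MIA cortex without LPS replicate 3 (0.055). Mtif3, an initiation factor, fell: it was at 27.7, 27.8 and 25 CPM in control cortex saline and at 13.6, 16 and 15.4 CPM after LPS (-0.84, SE 0.17, adjusted p = 0.0011), and changed by -0.58 (adjusted p = 0.026) in MIA cortex. Of 21 mitochondrial aminoacyl-tRNA synthetases, 5, 5, 5 and 4 rose and none fell, beside the same shares over all genes. Tars2 rose by 1.17, 1.24, 0.82 and 1.43, Ears2 by 1.07, 0.75, 1.08 and 1.16, and Rars2 by 0.93, 1.33, 1.04 and 0.93. These synthetases and Tufm had interaction estimates of -0.40 to 0.40, none called.

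Of the templates of the mitochondrial ribosome, 0 of 13 messenger RNAs of mitochondrial DNA were called in any of the 4 settings. The same held for 0 of its 2 ribosomal RNAs. Spread was wide for some (mt-Rnr2 in control striatum LPS, mean 6630 CPM, SD 6137) and narrow for others (mt-Cytb in control cortex LPS, 4166, SD 138). A missing call therefore does not show that levels stayed the same. Of 15 genes for mitochondrial transcription and DNA maintenance, 2, 2, 1 and 1 rose and 1, 1, 0 and 0 fell, which is close to the shares over all genes (10.9%, 12.7%, 7.05% and 6.93% called higher). Elac2, which processes transfer RNA ends, rose in all 4 (0.69, 1.18, 0.85 and 1.17), and Ssbp1, the single-strand binding protein, in controls (0.52 and 0.58). The calls of Elac2 were lost in MIA cortex without saline replicate 1 (adjusted p = 0.094) and in MIA striatum without LPS replicate 2 (0.06). Those of Ssbp1 were lost in control cortex without LPS replicate 1 (0.051) or saline replicate 2 (0.06) and, with no filter on low counts, in control cortex (0.092) and control striatum (0.056). The nuclease Mgme1 fell in control cortex (-0.64, adjusted p = 0.027, and up to 0.18 without 1 library, saline replicate 2), and Tfam, which packages mitochondrial DNA, was not called in any (0.10, 0.41, -0.23 and -0.13, SE 0.28 to 0.31). Of 31 genes for protein import, 18, 18, 10 and 7 rose and none fell. Tomm40, the outer membrane channel, rose by 1.20, 1.72, 0.93 and 1.34, Timm23, the inner membrane channel, by 1.21, 1.23, 0.88 and 0.61, Hspa9, the matrix chaperone, by 1.04, 1.00, 0.87 and 0.86, and the small chaperone Timm8a1 by 2.14, 1.76, 1.45 and 1.36.

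Regulators of mitochondrial biogenesis (11 genes) rose in 1, 2, 0 and 2 cases and fell in 2, 1, 0 and 1, counts too small to set apart from the 6.93% to 12.7% of all genes called higher. Myc, a driver of ribosome genes in growing cells, was at 67.1, 52.6 and 90.1 CPM in control cortex saline and at 113, 136 and 184 CPM after LPS (1.05, SE 0.25, adjusted p = 0.0049). It rose by 1.08 in control striatum and 1.07 in MIA striatum, and was not called in MIA cortex (0.58, adjusted p = 0.15). Pprc1, a coactivator, rose in control striatum (0.67, adjusted p = 0.032) and MIA striatum (0.98, adjusted p = 0.01). These calls were lost without 1 of several libraries (adjusted p up to 0.21 without control striatum LPS replicate 3, and up to 0.13 without MIA striatum LPS replicate 2), and that of Myc in MIA striatum without LPS replicate 2 (0.22) or saline replicate 2 (0.053). Gabpb1, the partner subunit of GABPA, fell by 0.78 in control cortex, 0.74 in control striatum and 0.86 in MIA striatum on the log2 scale, and the last of these calls did not survive the loss of LPS replicate 1 (adjusted p = 0.097) or 2 (0.052). Ppargc1b had means of 1.52 to 2.68 CPM in the control groups and was not called in any.

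Compared with other gene families, the members' median LPS changes of 0.56, 0.74, 0.34 and 0.29 stood beside 0.50, 0.56, 0.10 and -0.04 for 80 tested genes of the cytosolic ribosome. They stood beside 0.63, 0.56, 0.27 and 0.12 for 81 tested nuclear genes of the respiratory chain and ATP synthase. Of the cytosolic ribosomal genes 18, 22, 4 and 1 rose and 0, 0, 1 and 1 fell. Of the respiratory chain and ATP synthase genes 53, 54, 12 and 6 rose and 1, 1, 0 and 0 fell. Over all genes, 10.9%, 12.7%, 7.05% and 6.93% were called higher. The differences between families were not tested.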

How the data were processed

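RNA-seq of CD11b-sorted cells gave 1 expected count per gene and library, which the authors deposited as a table of 24 libraries. Per the submitters' processing notes, STAR, RSEM and DESeq2 were used; their versions, the build and the use of strand are not given in the sources used here. Of the deposited expected counts, 6.92% were not whole, and they were rounded. Symbols (55141 of 55487 identifiers matched), transcript lengths and exon overlaps came from GENCODE M21, which may differ from the authors' annotation. Members and gene lists were chosen with earlier results of these data known.

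In R 4.3.3 with edgeR 4.0.16, filterByExpr (minimum count 10, minimum total 15) kept 17139 genes. After TMM scaling, quasi-likelihood tests used a single model of 8 group terms over 23 libraries (15 residual degrees of freedom), two-sided, with Benjamini-Hochberg adjustment within each of 12 comparisons and calls at an adjusted p under 0.05. The SE is that implied by the F statistic. The script was tested on simulated data. Depth was 19453295 to 29480499 counts per library.

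Named members were, for each LPS comparison, the 8 called members with the smallest adjusted p, for the others, which called none, the 2 with the smallest p, 7 fixed members, 7 fixed other genes, up to 2 called genes per list and LPS comparison, and the 3 most and 3 least abundant members per kb. Mrpl9, Mrpl10 and Mrps21 were chosen after their values were seen. Alternatives were RLE size factors, no filter, a stricter filter, DESeq2 1.42.0, all 24 libraries, the replicate number as a block and each library left out. Leaving out both MIA cortex libraries that stood apart was chosen after seeing the data. Whether numbers pair libraries was checked by correlating deviations from group means. All pairs exceeded 0.1 for LPS against saline in control cortex (0.14 to 0.49) and for striatum against cortex in control saline (0.36 to 0.40), and not elsewhere. Between groups, the median correlation was 0.2 for libraries of the same number and -0.09 for libraries of different numbers.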

Additional observations from a re-analysis of the deposited data

Results flagged for a closer look

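In MIA striatum LPS replicate 3, the library its title marks as excluded and which no comparison above uses, the summed level of the 78 members was 3131 CPM, scaled with all 24 libraries. That is above the saline libraries of MIA striatum for 76 of 78 members and above both other MIA striatum LPS libraries for 75 of 78. Its oligodendrocyte markers summed to 6458 CPM (272 to 5513 CPM in the other 23 libraries), astrocyte markers to 1388 (231 to 981), neuron markers to 285 (23.3 to 226), microglial markers to 26482 (29418 to 64012) and border macrophage markers to 227 (319 to 1307). Messenger RNAs of mitochondrial DNA were 4.96% of its counts, against 1.57 to 3.34% in the others. The member sum exceeded that of every control LPS library, at most 2896 CPM on this scale. The part of these cells and of RNA quality in the member sum was not tested.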

How the results depend on the processing

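The counts of members called higher with LPS were each set against 30 alternatives: all 30 were within 1.5 times for both control regions, 25 for MIA cortex and 23 for MIA striatum. The remaining counts of called members were 0 throughout, with 1 exception given below, and say nothing about stability. In MIA cortex, 17 members were called higher, against 7 with no filter on low counts, 7 with all 24 libraries and 7 to 22 when single libraries were left out. In MIA striatum, 10 were called higher, against 2 with no filter, 29 with all 24 libraries and 1 to 12 when single libraries were left out. After LPS, 0 members were called lower in MIA than in control striatum by edgeR and 4 by DESeq2. The cause of these shifts was not tested. Single-library ranges were 32 to 47 in control cortex and 50 to 61 in control striatum. With the replicate block, 45, 63, 18 and 10 members were called higher in control cortex, control striatum, MIA cortex and MIA striatum, and it moved no count by over 1.5 times. No direction of a called member reversed. Of 96 calls of named genes, 67 held under every alternative. Other calls given above, such as those of Mrps10 and Ndufab1 in MIA cortex, were not followed in this way.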
